A study of Mus musculus with 18 samples.

Results

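The 10 genes described here encode receptor tyrosine kinases of growth signals: the PDGF receptors Pdgfra and Pdgfrb, the FGF receptors Fgfr1 and Fgfr2, the IGF receptor Igf1r, the EGF receptor Egfr, the HGF receptor Met, the Gas6 receptor Axl, the collagen receptor Ddr2, and Alk. They were taken by symbol from tables of 24062 genes. The first 9 were listed as receptors of signals that act on fibroblasts, and Alk was added because it was higher in one of the cell lines in these same data. All 10 passed the filter on low counts that 12140 genes passed. Alk passed it through the samples of the line in which it was higher, so its difference between the lines chose it, and that difference is given below as a description without a test.

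The samples were 18 polyA-selected RNA libraries of NIH3T3 cells, a mouse embryonic fibroblast line, in 6 groups of 3. The lines were the parental NIH3T3 (wild-type, here WT) and NIH3T3-mCherry-mTRIM21 (here TRIM21), which carries mouse TRIM21, a cytosolic antibody-binding ubiquitin ligase, joined to the fluorescent protein mCherry. Cells of each line received PBS, 7.5 µg of bovine serum albumin (BSA) or 7.5 µg of an antibody (IgG) by electroporation with 2 pulses of 20 ms at 1400 V, and were lysed 16 h later. Within each group the samples carry the numbers 10, 11 and 14 in their titles. All 18 samples went through electroporation and recovered in medium with 10% calf serum, which itself brings growth factors, so no group shows the receptors without either. The promoter driving the fusion, and whether the TRIM21 line is 1 clone, are not given in the sources used here. With 1 derived line set against its parent, the presence of the fusion and any other difference between the lines cannot be told apart. Nothing says that the 3 samples of a group came from separate cultures, so the p-values measure the spread between these samples, which may be technical.

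Gene counts per library ran from 19509017 to 29766433, so that 3 counts correspond to 0.0981 to 0.152 CPM, counts scaled to 1e+06 reads. Trim21, the introduced gene, was at 8.02 ± 1.13 CPM in the WT line and 1038 ± 63.6 CPM in the TRIM21 line (SD, n = 9 each). The 10 fibroblast markers had counts in every library, the lowest being 1 count of Lum in the TRIM21 IgG sample 11, with a summed level of 25766 to 34130 CPM in WT and 18241 to 29837 CPM in TRIM21. Of these, 3 were lower in TRIM21 by edgeR's quasi-likelihood test with Benjamini-Hochberg adjustment, beside 4.79% of all tested genes called lower. They were Lum with a log2 fold change of -2.54 (adjusted p = 5.26e-05), Sparc with -0.30 (adjusted p = 0.0207) and Thy1 with -0.29 (adjusted p = 0.0207). The median log2 fold change of the 10 markers was -0.27, beside 0.014 over all tested genes, and 1 marker lay above 0. Sparc and Thy1 missed the threshold without the TRIM21 IgG sample 10 (adjusted p = 0.0504 and 0.0541). Markers of other cell types were low: the summed level reached 2.32 CPM over 6 epithelial genes, 2.65 over 5 endothelial genes, 3.02 over 6 neural and Schwann genes and 0.989 over 4 muscle genes. The 4 immune genes summed to 7.57 to 10.6 CPM in WT and 7.39 to 11.8 CPM in TRIM21, mostly from Cd68 (6.15 and 6.37 CPM) and Csf1r (2.73 and 2.56 CPM), whereas Ptprc did not pass the filter and Emr1 was at 0 in every library. In bulk RNA, fewer cells of a type and less RNA per cell cannot be told apart. The TRIM21 PBS sample 11 stood apart from the other libraries for several receptors, and the values without it are given where it matters.

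Receptor tyrosine kinases span the cell membrane, bind a ligand outside the cell, pair up and phosphorylate each other's tails on tyrosine. Adaptor proteins such as Grb2 and Shc1 dock there and pass the signal to the Ras-ERK and PI3K-AKT routes, while feedback proteins such as the Sproutys damp it. In fibroblasts, PDGF, FGF and IGF signals drive division, migration and matrix production, and NIH3T3 cells are a classic host for assays of these receptors.

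The receptors differed far more from each other than between the samples. Levels between genes are compared here as RPKM, the CPM divided by the length in kilobases of the longest annotated transcript. Axl was the most abundant receptor by this measure at 230.3 ± 34.8 RPKM, followed by Pdgfra at 128 ± 32.8, Ddr2 at 66.4 ± 8.28 and Fgfr1 at 48.6 ± 5.36 RPKM (SD, n = 18 each). Pdgfrb at 35.8 ± 5.75 RPKM, Met at 31.6 ± 4.03, Igf1r at 19.9 ± 2.21 and Fgfr2 at 11.4 ± 1.07 made up the middle of the order (SD, n = 18 each). Egfr at 0.456 ± 0.226 RPKM and Alk at 0.0765 ± 0.0566 RPKM lay far lower (SD, n = 18 each).

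Most neighbours in this order kept their places in nearly every library. All 18 samples had Met above Igf1r, Igf1r above Fgfr2 and Fgfr2 above Egfr, with ranges that did not overlap. Axl exceeded Pdgfra in 17 samples, the exception being the WT PBS sample 14. Pdgfra exceeded Ddr2 in 17, the exception being the TRIM21 PBS sample 11, and Ddr2 exceeded Fgfr1 in 17, the exception being the WT BSA sample 14. Fgfr1 exceeded Pdgfrb in 18 of 18, although their ranges over the samples overlapped, as did those of Egfr and Alk. Pdgfrb and Met were not separated beyond their spread, since Pdgfrb was higher in 14 of 18 samples. The position of Fgfr1 depended on the length used: with the union of all annotated exons as length it was 24.8 RPKM and fell to rank 6, behind Pdgfrb and Met.

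**Figure D1:**
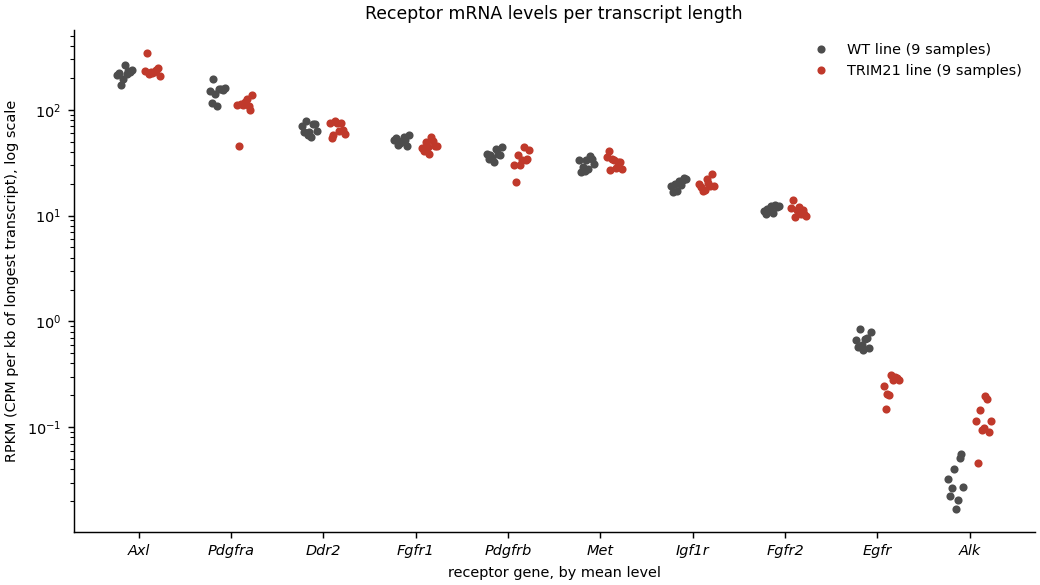
Level of each receptor in RPKM (log axis) in the 9 WT samples (grey) and the 9 TRIM21 samples (red), 1 point per sample, with genes ordered by mean level. Axl and Pdgfra lie at the top, 8 receptors reach at least 9.78 RPKM in every sample, and Egfr and Alk stay at or below 0.840 RPKM.

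Egfr, the receptor of EGF, TGF-alpha, amphiregulin and related ligands, was lower in the TRIM21 line in every treatment. The gene is on chromosome 11 at 16752203 to 16918158, plus strand, in GRCm38 (ENSMUSG00000020122.16, protein coding). Its RefSeq promoter window, the 250 bases before to 50 bases after the annotated start, is shown because Egfr is the receptor whose level separated the lines. It is given 5′ to 3′ on the plus strand of GRCm38.p6, chr11:16751953-16752252, with the single GC box (CCGCCC, the reverse complement of GGGCGG) in capitals.

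Egfr: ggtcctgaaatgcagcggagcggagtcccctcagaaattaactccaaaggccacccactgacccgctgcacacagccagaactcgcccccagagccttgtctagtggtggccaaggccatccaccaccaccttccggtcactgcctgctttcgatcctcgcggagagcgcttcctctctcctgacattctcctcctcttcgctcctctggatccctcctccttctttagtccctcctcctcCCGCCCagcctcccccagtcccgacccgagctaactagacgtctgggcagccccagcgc

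In the WT line Egfr was at 6.77, 5.87 and 8.58 CPM after PBS in samples 10, 11 and 14, at 6.06, 5.53 and 7.0 CPM after BSA, and at 7.06, 5.74 and 8.13 CPM after IgG. In the TRIM21 line it was at 2.52, 1.5 and 2.11 CPM after PBS, at 2.06, 3.17 and 2.88 CPM after BSA, and at 3.04, 2.97 and 2.87 CPM after IgG. The lowest WT sample, BSA 11, lay above the highest TRIM21 sample, which was also BSA 11, so the lines did not overlap. Egfr counts were 113 to 186 per library in WT and 30 to 88 in TRIM21.

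The mean fell from 6.75 ± 1.07 to 2.57 ± 0.564 CPM (SD, n = 9 each), a level 2.63-fold lower. The log2 fold change was -1.40 (SE 0.119, 95% confidence interval -1.65 to -1.16, adjusted p = 2.9e-07 by edgeR's quasi-likelihood test). Every one of the 9 TRIM21 samples lay below every WT sample. In this fit, which left the sample numbers out, Egfr was the only 1 of the 9 receptors other than Alk that passed the threshold of 0.05. In the same comparison 6.18% of the 12140 tested genes passed, 4.79% lower and 1.39% higher. Of all tested genes, 1.91% had lines that did not overlap, 1.67% with the TRIM21 line lower. Within the treatments the log2 fold change was -1.78 after PBS (adjusted p = 7.42e-05, with 1.71% of genes called), -1.20 after BSA (adjusted p = 0.00337, 0.848% called) and -1.24 after IgG (adjusted p = 0.00245, 0.774% called), by the same edgeR test. These 3 contrasts make up the overall one and add no independent evidence.

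Single libraries did not carry the Egfr difference. Leaving out each of the 18 samples in turn gave log2 fold changes of -1.46 to -1.36 and adjusted p-values of 3.39e-07 to 2.08e-06 by the same edgeR test, and without the TRIM21 PBS sample 11 the value was -1.36. Samples of 1 number alone give 3 against 3, with 1 PBS, 1 BSA and 1 IgG sample in each line. In such fits the log2 fold change of Egfr was -1.39 for number 10, -1.17 for number 11 and -1.59 for number 14. The fit on number 11 alone missed the threshold (edgeR adjusted p = 0.197), and that fit called 48 genes in all.

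**Figure D2:**
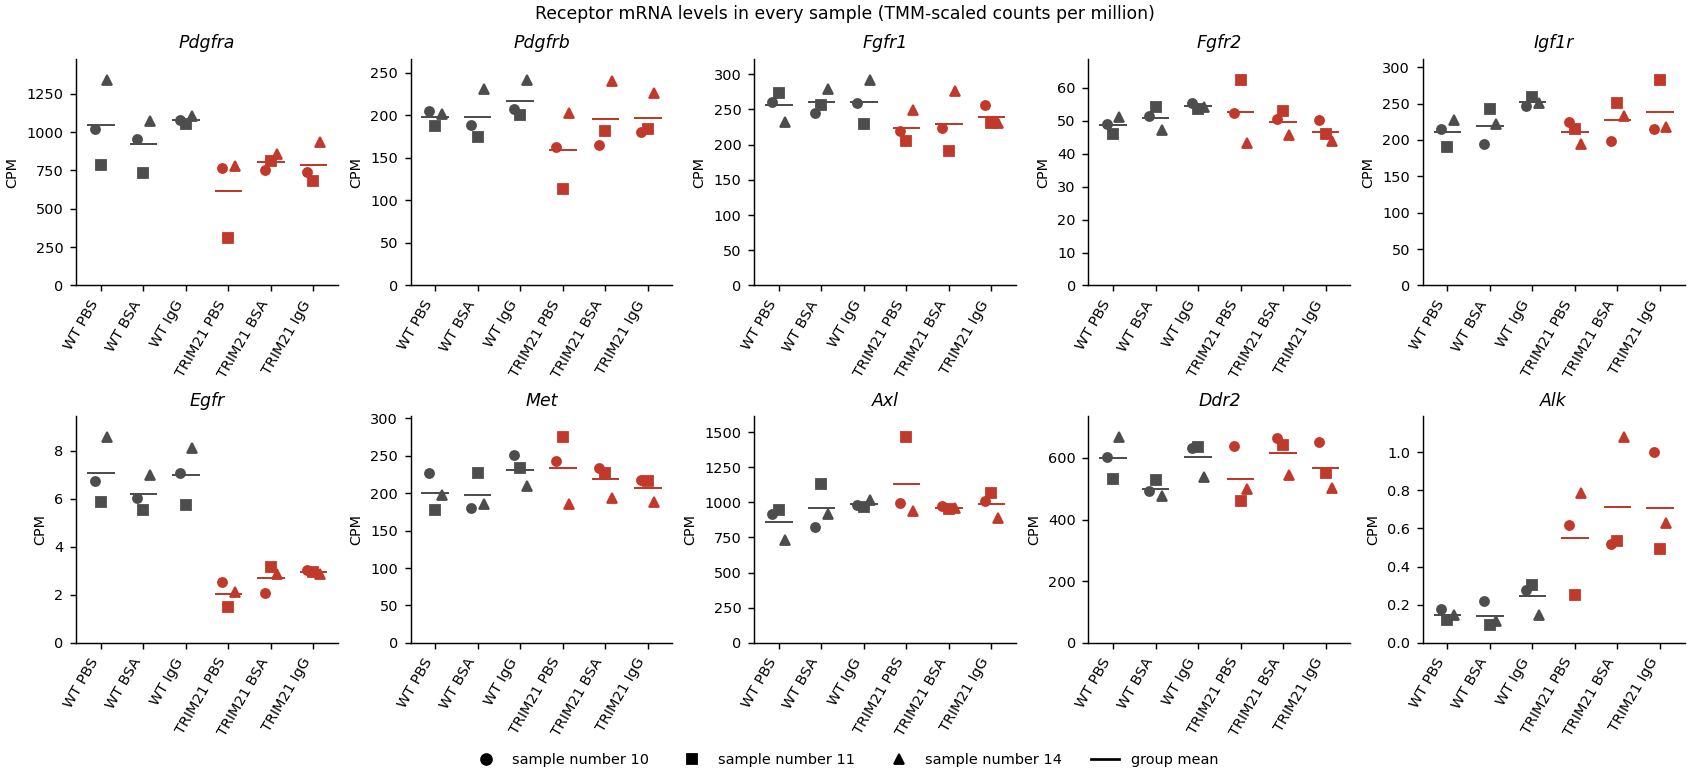
CPM of each receptor in all 18 samples, with 1 panel per gene and its own axis from 0, the WT groups in grey and the TRIM21 groups in red. Marker shapes give the sample number and bars the group mean. Egfr separates the lines without overlap, and the TRIM21 PBS sample 11 (square) is the lowest TRIM21 value for Pdgfra and the highest for Axl and Fgfr2.

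Pdgfra and Pdgfrb, the receptors of the platelet-derived growth factors, are the classic mitogen receptors of fibroblasts. Pdgfra lies on chromosome 5 at 75152292 to 75198215, plus strand, in GRCm38 (ENSMUSG00000029231.15). Pdgfra exons overlap the annotated genes Gm42802 and Gm42803 on the opposite strand and Mir7025 on the same strand. The libraries were stranded, but the strand setting of the counting is not given in the sources used here. The Pdgfra promoter window, chr5:75152001-75152300 on the plus strand of GRCm38.p6, is shown as the counterpart of the Egfr window for the most variable of the abundant receptors. It holds no GC box, so nothing is in capitals. Within the groups the coefficient of variation of the Pdgfra CPM had a median of 17.7% and reached 43.1% in the TRIM21 PBS group, whereas the median was 6.83% for Fgfr2.

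Pdgfra: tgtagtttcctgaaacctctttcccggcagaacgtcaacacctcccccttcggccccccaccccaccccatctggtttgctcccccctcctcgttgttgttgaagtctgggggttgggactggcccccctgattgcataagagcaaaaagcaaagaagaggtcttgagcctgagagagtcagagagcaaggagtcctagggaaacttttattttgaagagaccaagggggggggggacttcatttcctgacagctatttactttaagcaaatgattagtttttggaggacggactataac

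In the WT line Pdgfra was at 1017, 784 and 1341 CPM after PBS in samples 10, 11 and 14, at 956, 736 and 1075 CPM after BSA, and at 1078, 1053 and 1104 CPM after IgG. In the TRIM21 line it was at 763, 309.9 and 779 CPM after PBS, at 752, 809 and 858 CPM after BSA, and at 741, 682 and 933 CPM after IgG. The lines overlapped for Pdgfra, since the WT BSA and WT PBS samples 11 lay among the TRIM21 samples.

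The mean of Pdgfra was 1016 ± 179.7 CPM in WT and 736 ± 175 CPM in TRIM21 (SD, n = 9 each). This difference, -0.47 on the log2 scale, did not pass the threshold (SE 0.148, 95% confidence interval -0.78 to -0.16, edgeR unadjusted p = 0.00525, adjusted p = 0.0692). The call depended on the processing while the direction did not. With the sample number added to the model as a block, Pdgfra passed (log2 fold change -0.48, edgeR adjusted p = 0.0106). Pdgfra passed with no filter on low counts (edgeR adjusted p = 0.0311). The DESeq2 Wald test called it too (log2 fold change -0.47, adjusted p = 0.0225). It missed the threshold with DESeq2 size factors in edgeR (-0.47, adjusted p = 0.0675). With 1 sample number alone, Pdgfra passed for number 10 (-0.45, edgeR adjusted p = 0.00548). It missed for number 11 (-0.52, edgeR adjusted p = 0.793) and number 14 (-0.45, edgeR adjusted p = 0.115). These single-number fits took the treatments of a line as its replicates.

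Pdgfra also passed in 5 of the 18 edgeR fits that left out 1 sample. Without the TRIM21 PBS sample 11, its lowest value, the Pdgfra log2 fold change was -0.37 (adjusted p = 0.0398). Without the TRIM21 PBS sample 10 or 14 it was -0.53 (adjusted p = 0.0467) or -0.55 (adjusted p = 0.026). Without the WT PBS sample 11 or the WT BSA sample 11 it was -0.53 (adjusted p = 0.044) or -0.52 (adjusted p = 0.0426). Over all 18 such fits the adjusted p-value ranged from 0.026 to 0.145.

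The Pdgfrb gene is on chromosome 18 at 61045150 to 61085061, plus strand (ENSMUSG00000024620.11). Its level ran from 175 to 242 CPM in WT with a median of 202, and from 113 to 240.2 CPM in TRIM21 with a median of 182. Its lowest value was again the TRIM21 PBS sample 11. Between the lines the log2 fold change was -0.16 (SE 0.102, 95% confidence interval -0.37 to 0.058, edgeR adjusted p = 0.392), and -0.099 without that sample.

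Pdgfra and Pdgfrb varied together inside the groups. Over the 18 samples, the deviations of log2 CPM from the group means had a Pearson r of 0.792 (exact permutation within groups, two-sided p = 0.000279, adjusted p = 0.0125 over the 45 receptor pairs) and a Spearman rho of 0.833 (exact permutation p = 0.000193, adjusted p = 0.00868). Of the 45 pairs this was the single one that passed after adjustment, by either coefficient. The permutation shuffled each group on its own, as if the groups were unrelated. However, 16 of the 18 samples were closest to samples of their own number in other groups. The permutation p-values of all pairs may therefore be too small. Leaving out the TRIM21 PBS samples 11 and 14, the 2 farthest from the median of Pdgfra, gave an r of 0.59. Within the sample numbers r was 0.698 for 10, 0.886 for 11 and 0.0385 for 14, so the relation did not hold in the samples numbered 14.

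Pdgfra and Axl deviated in opposite directions, with an r of -0.926 (exact permutation p = 0.00574, adjusted p = 0.0646) and a rho of -0.884 (exact permutation p = 0.006, adjusted p = 0.0675). This pair did not pass the adjustment over 45 pairs. Its r was -0.859 without the same 2 samples, and -0.675, -0.941 and -0.968 within numbers 10, 11 and 14. All such deviations share the library they were read from.

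Fgfr1 and Fgfr2 bind fibroblast growth factors together with heparan sulfate. Fgfr1 is on chromosome 8 at 25513654 to 25575718, plus strand (ENSMUSG00000031565.18), and Fgfr2 on chromosome 7, minus strand (ENSMUSG00000030849.18). The annotated Fgfr2 model runs from 130162451 to 133123350 and shares 314 exonic bases with Ctbp2 on the same strand, and Fgfr1 shares 164 exonic bases with the antisense gene Gm16159. Fgfr1 ran from 229 to 292 CPM in WT with a median of 259.5, and from 190.4 to 276 CPM in TRIM21 with a median of 230.1. The ranges overlapped, and its log2 fold change was -0.16 (SE 0.073, 95% confidence interval -0.32 to -0.0088, edgeR adjusted p = 0.209). Fgfr2 ran from 46.1 to 55.2 CPM in WT with a median of 51.3, and from 43.3 to 62.4 CPM in TRIM21 with a median of 50.2. Its highest value was the TRIM21 PBS sample 11, and the log2 fold change was -0.047 (SE 0.0642, 95% confidence interval -0.18 to 0.088, edgeR adjusted p = 0.708), or -0.10 without that sample.

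Igf1r, the receptor through which IGF1 and IGF2 promote growth and survival, showed no difference that this comparison could detect. It is on chromosome 7 at 67952827 to 68233668, plus strand (ENSMUSG00000005533.10). Igf1r ran from 189.99 to 259 CPM in WT with a median of 228, and from 195 to 283 CPM in TRIM21 with a median of 218. The log2 fold change was -0.0084 with a 95% confidence interval of -0.16 to 0.14 (edgeR adjusted p = 0.957).

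Met, the receptor of hepatocyte growth factor, is on chromosome 6 at 17463800 to 17573980, plus strand (ENSMUSG00000009376.15). It ran from 177 to 251 CPM in WT with a median of 209.96, and from 185 to 275 CPM in TRIM21 with a median of 218. Between the lines its log2 fold change was 0.070 with a 95% confidence interval of -0.099 to 0.24 (edgeR adjusted p = 0.652), and 0.018 without the TRIM21 PBS sample 11, its highest value.

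Axl, which binds Gas6 and belongs to the TAM family with Tyro3 and Mertk, is on chromosome 7 at 25757273 to 25788705, minus strand (ENSMUSG00000002602.16). Axl ran from 730.4 to 1128 CPM in WT with a median of 946, and from 888 to 1464 CPM in TRIM21 with a median of 974. The TRIM21 to WT log2 fold change was 0.13 with a 95% confidence interval of -0.053 to 0.32 (edgeR adjusted p = 0.404). Without the TRIM21 PBS sample 11, which held 1464 CPM, it was 0.049.

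Ddr2, a receptor activated by fibrillar collagen and not by a soluble factor, is on chromosome 1 at 169972307 to 170110762, minus strand (ENSMUSG00000026674.9). Its exons share 90 bases with the antisense gene 3110045C21Rik. Ddr2 ran from 475 to 667 CPM in WT with a median of 539, and from 459.6 to 665 CPM in TRIM21 with a median of 552. For Ddr2 the log2 fold change was 0.018 with a 95% confidence interval of -0.14 to 0.18 (edgeR adjusted p = 0.917). For Igf1r, Met, Axl and Ddr2 the ranges of the lines overlapped widely. The confidence intervals of Igf1r, Met and Ddr2 stayed within 0.24 on the log2 scale in either direction, and that of Axl reached 0.32.

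Alk, a receptor that is active mainly in the developing nervous system and binds the ALKAL ligands, was the scarcest of the 10. It lies on chromosome 17 at 71868972 to 72604627, minus strand, in GRCm38 (ENSMUSG00000055471.7). Its promoter window, chr17:72604258-72604557 of GRCm38.p6 read on the minus strand, is shown for the receptor that was chosen for its higher level in the TRIM21 line, with its single GC box in capitals.

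Alk: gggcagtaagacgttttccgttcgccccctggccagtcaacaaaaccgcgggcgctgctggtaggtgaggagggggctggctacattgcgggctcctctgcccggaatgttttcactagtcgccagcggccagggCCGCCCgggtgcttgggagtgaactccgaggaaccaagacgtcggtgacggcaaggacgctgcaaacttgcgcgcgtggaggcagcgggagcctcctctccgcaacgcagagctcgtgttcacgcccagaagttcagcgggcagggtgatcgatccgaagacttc

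In the WT line Alk had 4, 3 and 3 counts after PBS in samples 10, 11 and 14, 5, 2 and 3 after BSA, and 6, 6 and 3 after IgG. In the TRIM21 line it had 13, 5 and 22 counts after PBS, 13, 12 and 33 after BSA, and 23, 10 and 14 after IgG. On the CPM scale the WT samples ran from 0.0921 to 0.305 with a median of 0.148 and the TRIM21 samples from 0.250 to 1.08 with a median of 0.618. The ranges met at the TRIM21 PBS sample 11, which lay below 2 of the 9 WT samples.

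The mean of Alk was 0.177 ± 0.0747 CPM in WT and 0.657 ± 0.260 CPM in TRIM21 (SD, n = 9 each), a level 3.7-fold higher, with a fitted log2 fold change of 1.93. The counts summed to 145 in TRIM21 and 35 in WT, a ratio of 3.91 after scaling to library size. Since this difference chose the gene, it has no interval or test here. With 2 to 6 counts each, the WT libraries lay at or near the floor of 3 counts. By treatment the log2 fold change was 1.92 after PBS, 2.33 after BSA and 1.53 after IgG, and it was 1.63 with the samples numbered 10 alone and 2.62 with those numbered 14 alone. Among all tested genes, 2.02% had a lower mean CPM than Alk. Of the 6 neural and Schwann markers, 4 were at 0 in every sample, and the summed level of the list was 1.57 to 3.02 CPM in WT and 1.25 to 2.75 CPM in TRIM21. Their part in the Alk level was not tested.

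**Figure D3:**
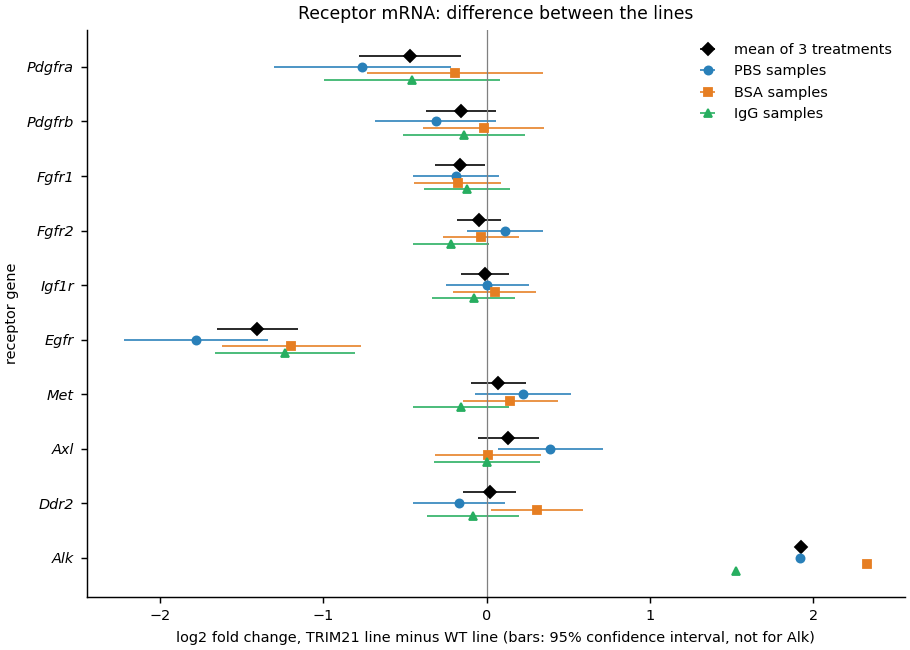
Log2 fold change of each receptor between the TRIM21 and WT lines, with 95% confidence intervals for all but Alk, as the mean of the 3 treatments (black) and within PBS (blue), BSA (orange) and IgG (green) samples. Egfr lies below 0 in each treatment, at -1.78, -1.20 and -1.24, Alk, chosen on this contrast and drawn without intervals, lies above 0, and most intervals of the other 8 receptors cross 0.

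The 8 promoter windows that could be matched, those of all members but Pdgfrb and Fgfr1, were unlike each other. CpG pairs numbered 48 in Igf1r, 34 in Met, 28 in Alk and 15 in Egfr, against 6 in Axl, 5 in Pdgfra, 4 in Fgfr2 and 2 in Ddr2, with a median of 7 over 32851 promoter windows. A GC box, the hexamer GGGCGG read on either strand, occurred in 5 of the 8 windows and in 35.7% of all windows. A TATA box, TATAAA on either strand, occurred in the Ddr2 window alone and in 13.6% of all windows. The Ddr2 window, chr1:170088895-170089194, lies inside the gene, whose longest annotated transcript starts at 170110561. Its CpG count and TATA box therefore describe a start within the gene and not that of the longest transcript. The AP-1 heptamer TGANTCA occurred in the Met window alone and in 7.81% of all windows. Egfr and Alk, which lay lower and higher in the TRIM21 line, each held 1 GC box and neither of the other motifs. None of the 3 motifs contains another, though their ends can overlap, and a match describes the sequence and is not evidence that a factor binds.

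The treatments asked whether antibody or albumin in the cytosol went with a change in the receptors. None of the 10 receptors passed the threshold in any of the 12 treatment and interaction contrasts, each of which called 0% of the 12140 genes by the edgeR quasi-likelihood test. The DESeq2 Wald test also called 0 of the receptors there. In the TRIM21 line, IgG against PBS had 681 genes at an unadjusted p under 0.05 (5.61%). One of them was Egfr, with a log2 fold change of 0.53 (95% confidence interval 0.062 to 1.00, unadjusted p = 0.0285, edgeR adjusted p = 0.724). In this line Egfr was at 2.04 ± 0.513 CPM with PBS, 2.71 ± 0.575 with BSA and 2.96 ± 0.0872 with IgG (SD, n = 3 each). The WT values were 7.07 ± 1.38, 6.19 ± 0.747 and 6.98 ± 1.2 CPM under the same 3 treatments. The difference between the lines in this treatment effect was 0.55 (95% confidence interval -0.070 to 1.16, edgeR adjusted p = 0.972).

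In WT cells Igf1r was at 211 ± 19.2 CPM with PBS, 219.6 ± 24.2 with BSA and 252 ± 6.26 with IgG (SD, n = 3 each). Its IgG to PBS log2 fold change was 0.26 in WT (unadjusted p = 0.0482, edgeR adjusted p = 1) and 0.22 over both lines (unadjusted p = 0.0214, edgeR adjusted p = 0.846). At an unadjusted p under 0.05, 325 genes (2.68%) and 670 genes (5.52%) stood in these 2 contrasts. For Ddr2 the BSA to PBS difference was 0.48 higher on the log2 scale in TRIM21 than in WT (unadjusted p = 0.0211, edgeR adjusted p = 0.651, with 790 genes or 6.51% at such a p). None of the receptors had an unadjusted p under 0.05 in the other 8 contrasts. Of all genes, 0.371% had such a p for IgG minus BSA and 3.68% for BSA minus PBS in TRIM21, 5.87% and 2.49% in WT, 1.03% and 0.972% over both lines, and 1.82% and 3.97% in the interactions for IgG minus PBS and IgG minus BSA.

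For Alk, which was not chosen on treatments, the IgG to PBS log2 fold change came to 0.32 in TRIM21 cells (95% confidence interval -0.52 to 1.16) and 0.71 in WT cells (95% confidence interval -0.64 to 2.05). Both intervals include a 2-fold rise, so a difference of that size in Alk was not resolved at this depth. Intervals for the abundant receptors were narrower: Fgfr1 lay within -0.17 to 0.36 and Pdgfra within -0.19 to 0.89 for IgG against PBS in the TRIM21 line. The comparisons with PBS share the PBS samples, among them the TRIM21 PBS sample 11, and without it the receptors called in these contrasts stayed at 0.

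**Figure D4:**
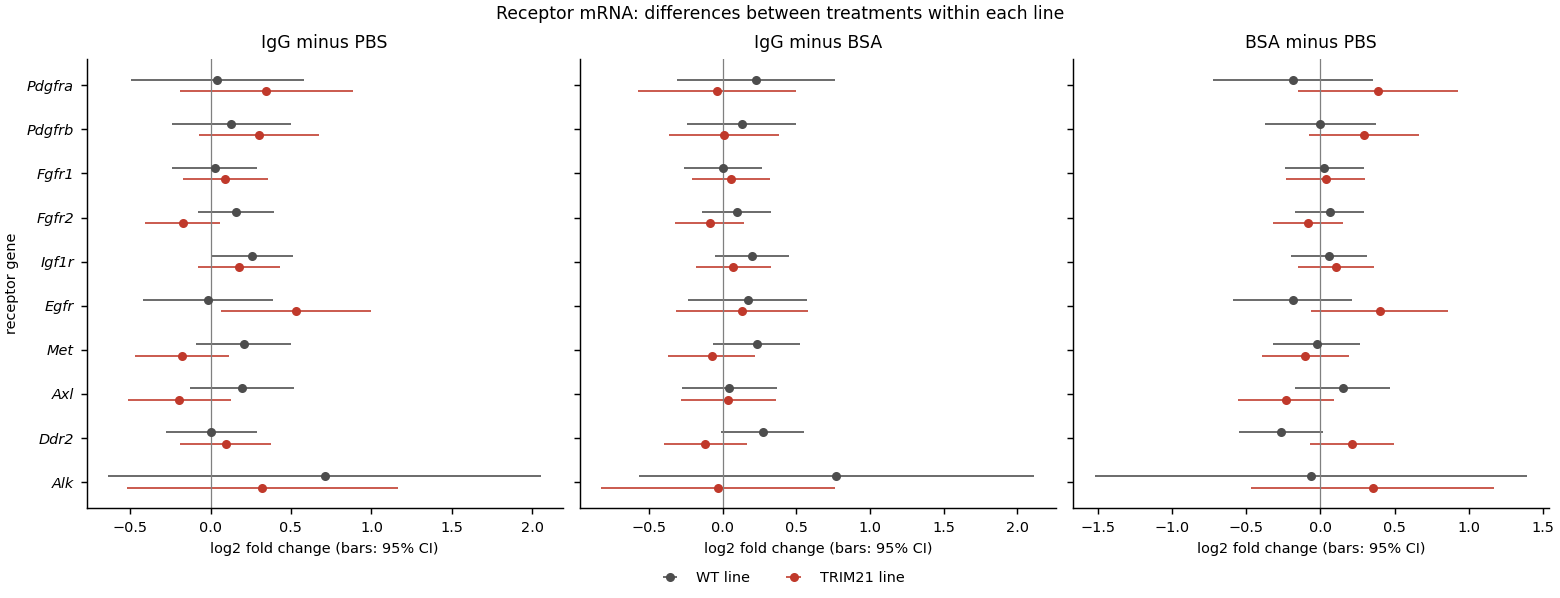
Log2 fold change of each receptor for the 3 treatment pairs (1 panel each) in the WT (grey) and TRIM21 (red) lines, with 95% confidence intervals. Nearly all intervals cover 0, the widest are those of Alk, and Egfr in the TRIM21 line lies at 0.53 for IgG against PBS.

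Among the genes listed as ligands of the receptors, Gas6, Ptn, Igf1 and Igf2 were lower and Pdgfa was higher in the TRIM21 line. Of 28 listed ligands, 17 were tested, and 1 rose and 4 fell, beside 1.39% higher and 4.79% lower among all tested genes. Their median log2 fold change was 0.034, beside 0.014 over all tested genes. This list and those below were chosen with earlier results of these data known. Their counts beside the shares of all genes are therefore descriptions. Gas6, the ligand of Axl, Tyro3 and Mertk, fell from a range of 2.76 to 5.72 CPM with a median of 4.53 in WT to a range of 0.396 to 0.953 CPM with a median of 0.687 in TRIM21. The lines did not overlap for Gas6, and its log2 fold change was -2.63 (SE 0.189, edgeR adjusted p = 3.19e-08). Ptn, the heparin-binding growth factor pleiotrophin, fell from 256 ± 52.6 to 136 ± 29.4 CPM (SD, n = 9 each, log2 fold change -0.91, edgeR adjusted p = 0.000385). The lowest WT value of Ptn, 179 CPM, lay above the highest TRIM21 value, 169.9 CPM.

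Both ligands of Igf1r fell as well. Igf1 went from 24.0 ± 5.12 to 13 ± 3.06 CPM (SD, n = 9 each, log2 fold change -0.89, edgeR adjusted p = 0.000652), with the ranges overlapping. Igf2, named for its pairing with Igf1 after its values were seen, went from 321 ± 107.5 to 166 ± 58.5 CPM (SD, n = 9 each, log2 fold change -0.95, edgeR adjusted p = 0.015). Pdgfa, a ligand of Pdgfra, rose from 13.4 ± 1.85 to 17.9 ± 1.76 CPM (SD, n = 9 each, log2 fold change 0.42, edgeR adjusted p = 0.00416), with the ranges overlapping. Ligands without a called difference included Hgf at a log2 fold change of -0.14, Pdgfc at 0.042, Fgf7 at -0.11 and Hbegf at 0.14. The ALK ligand genes Fam150a and Fam150b did not pass the filter on low counts.

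Of the 48 other receptor tyrosine kinases, 22 were tested, 1 rose and 5 fell, beside 1.39% higher and 4.79% lower among all tested genes, with a median log2 fold change of -0.095. Epha7, an ephrin receptor, had 6 to 15 counts in each WT library and 0 to 2 in each TRIM21 library. Its pooled level was 25.2-fold higher in WT. Epha7 passed the filter on low counts through the WT samples, where it was higher. Its difference is therefore given as a description without a test, although it is counted among the 5 that fell. Epha4, another ephrin receptor, fell from 10.3 ± 1.34 to 6.11 ± 0.855 CPM (log2 fold change -0.75, edgeR adjusted p = 5.03e-05). Flt1, a VEGF receptor, fell from 12.4 ± 1.38 to 8.76 ± 0.81 CPM (SD, n = 9 each, log2 fold change -0.50, edgeR adjusted p = 0.00029).

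The other members of the Axl family moved in different directions. Tyro3 was at 11.3 ± 1.80 CPM in WT and 14.2 ± 1.88 CPM in TRIM21 (SD, n = 9 each, log2 fold change 0.34, edgeR adjusted p = 0.0418), but it missed the threshold in 14 of the 18 fits that left out 1 sample, all but those without the TRIM21 PBS samples 10 or 14, the TRIM21 IgG sample 14 or the WT PBS sample 11 (adjusted p 0.0565 to 0.0991 in the 14). Mertk, named for its place in this family after its values were seen, was at 5.19 ± 0.673 CPM in WT and 3.69 ± 0.841 CPM in TRIM21 (SD, n = 9 each, log2 fold change -0.49, edgeR adjusted p = 0.0319). Mertk missed the threshold without any 1 of 8 samples, with adjusted p-values of 0.0516 to 0.0757. These were TRIM21 BSA 11, TRIM21 IgG 10 and 14, WT PBS 10 and 14, WT BSA 10 and 14, and WT IgG 14. The remaining fall was that of Ntrk3, a neurotrophin receptor at 0.791 CPM in WT and 0.404 CPM in TRIM21, which was named after its values were seen (log2 fold change -0.92, edgeR adjusted p = 0.0393). Ntrk3 lost its call without TRIM21 PBS 10 or 11, TRIM21 BSA 10, TRIM21 IgG 10 or 11, WT PBS 11 or 14, WT BSA 14, or WT IgG 11 or 14 (adjusted p 0.0621 to 0.113).

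In the lists of coreceptors, adaptors, inhibitors and targets, the called genes are read beside the 6.18% of all tested genes that were called. Of 33 adaptor and relay genes 0 were called by edgeR's quasi-likelihood test, 7 had an unadjusted p under 0.05, and the DESeq2 Wald test called 1. The median log2 fold change of the list was 0.040, with the adaptors Grb2 at 0.13 and Shc1 at -0.14, the Ras activator Sos1 at 0.15 and the phosphatase Ptpn11 at 0.12. Of 12 tested coreceptor and ligand-binding genes among 18, the heparan sulfate carrier Gpc1 rose (80.5 ± 15.2 to 114 ± 15.6 CPM, log2 fold change 0.51, edgeR adjusted p = 0.00499). In the same list the binding protein Igfbp7 fell (30.1 ± 6.53 to 17.8 ± 3.81 CPM, log2 fold change -0.75, edgeR adjusted p = 0.00136).

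Of 23 inhibitors and feedback genes 3 fell: Il17rd, a membrane antagonist of FGF signalling, by 0.49 on the log2 scale (edgeR adjusted p = 0.00252), Spry1 by 0.38 (adjusted p = 0.00544) and Lrig3 by 0.34 (adjusted p = 0.0145). Spry2 at 0.0055, Spry4 at -0.067 and Dusp6 at 0.021 on the log2 scale did not pass, and the median of the list was 0.021. Of 15 immediate target genes Myc was the 1 that passed, from 101 ± 8.06 to 122 ± 12.3 CPM (log2 fold change 0.26, edgeR adjusted p = 0.0185), while Fos was at -0.33 and Egr1 at 0.13 on the log2 scale. Myc missed the threshold without the TRIM21 IgG sample 11, the WT PBS sample 14, the WT BSA sample 10 or the WT IgG samples 10 or 11 (adjusted p 0.0501 to 0.0659).

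**Figure D5:**
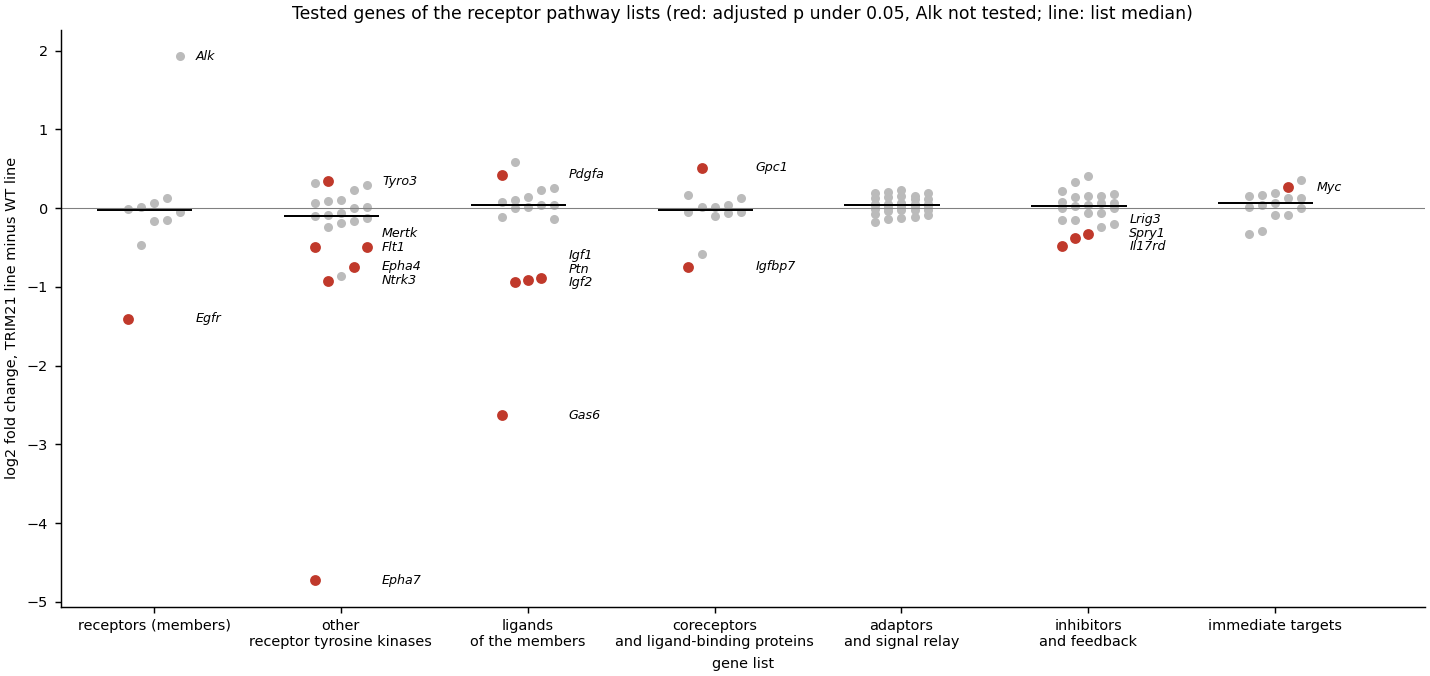
Log2 fold change between the lines of every tested gene in the receptor list and in 6 pathway lists, with called genes in red and named, other genes in grey, Alk untested and a bar at the list median. Gas6 at -2.63, Epha7 at -4.73 and Egfr at -1.40 are the lowest points, and the 33 adaptor and relay genes lie close to 0. Epha7, drawn as called, passed the filter on low counts through the WT samples, so its point is a description.

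For each receptor the gene with the highest correlation of log2 CPM over the 18 samples is given, as a description over samples that share lines and libraries. Each was picked as the highest among all tested genes, so a high r was built into the choice. Egfr was followed most closely by Lama2, a laminin chain, with a Pearson r of 0.969 over 18 samples, 0.705 within the 9 WT samples and 0.866 within the 9 TRIM21 samples. Lama2 itself was at 8.93 CPM in WT and 0.299 CPM in TRIM21, so both genes carry the difference between the lines. Because Lama2 was picked for its likeness to Egfr over both lines, its difference is a description without a test. Pdgfra went with the sodium channel gene Scn7a (r 0.986, with 0.983 in WT and 0.982 in TRIM21) and Axl with the actin-crosslinking protein gene Actn1 (r 0.974, with 0.983 and 0.965). Met went with Sema3a (r 0.951, with 0.973 in WT and 0.970 in TRIM21), Pdgfrb with Adamts2 (0.946, with 0.847 and 0.971) and Ddr2 with Kdm6a (0.928, with 0.948 and 0.922). Igf1r went with Edem1 (0.888, with 0.971 and 0.817), Fgfr2 with Slc38a4 (0.880, with 0.679 and 0.936) and Fgfr1 with Prss53 (0.873, with 0.501 and 0.955). Without the TRIM21 PBS sample 11, r was 0.811 for Fgfr2, 0.878 for Pdgfrb and 0.851 to 0.973 for the other receptors. For Alk the 3 highest were Sorcs2 (0.914), Cngb1 (0.892) and Gdnf (0.876), with 0.295, 0.459 and 0.448 within the WT samples and 0.800, 0.731 and 0.541 within the TRIM21 samples.

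Genes lying near the receptors in the genome differed in either direction. Of 104 tested genes with a start within 1 Mb of a receptor's start, 3 rose and 9 fell in the TRIM21 line, beside the 6.18% of all tested genes that were called. Among the 7 neighbours of Egfr and the 6 of Alk 1 was called, Clip4 near Alk, which fell by 0.50 on the log2 scale (edgeR adjusted p = 0.0466). Near Ddr2, whose own level did not differ detectably, Rgs4 fell from 20.5 to 7.82 CPM (log2 fold change -1.39, edgeR adjusted p = 5.49e-09) and Olfml2b by 0.60 on the log2 scale (adjusted p = 0.000219). Near Pdgfra, Rasl11b fell by 1.14 (adjusted p = 0.00027) and Chic2 by 0.22 (adjusted p = 0.0306) on the log2 scale. Near Axl, Ceacam1 rose by 1.27, and near Met, Tes rose by 0.22 on the log2 scale. The remaining 4 fell by 0.35 to 1.29 on the log2 scale: Synpo and Ablim3 near Pdgfrb, and Arrdc4 and Fam169b near Igf1r. Ceacam1 (0.406 CPM in WT, 1.02 in TRIM21) and Fam169b (0.797 and 0.327 CPM) were scarce. They may have passed the filter on low counts through the line where they were higher. Their differences are therefore descriptions, although both are counted above.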

How the data were processed

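The deposited values were raw read counts per gene symbol, 1 table per sample. The submitters' processing notes name STAR 2.5.1b, HTSeq 0.6.0, DESeq2 1.6.3, bcl2fastq 2.19.1.403, FastQC 0.11.5 and the build mm10, without role or order. The annotation and strand setting of the counting are not given in the sources used here. Reads given to no gene (13.1% to 18.8%) and to several genes (0.473% to 0.630%) were left out. These shares are of the reads given to 1 gene, to no gene or to several genes. Alignments that were not unique, 14199493 to 22123689 per library, are outside these shares and were also left out.

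The count model was edgeR 4.0.16 under R 4.3.3, with filterByExpr (minimum count 10, minimum total 15), TMM factors (0.977 to 1.03), 1 mean per group over 18 samples, glmQLFit and glmQLFTest, Benjamini-Hochberg adjustment over 12140 genes, threshold 0.05. CPM use the TMM library sizes. Standard errors come from the F statistic. Pairs of samples in a group differed by more than counting noise (chi-square per degree of freedom 10.6 to 82.0). On simulated line differences in 200 of 12140 genes the procedure recovered 83.6% at 1.5-fold, 86.6% at 2-fold and 98.5% at 4-fold, with 8 false calls. The simulated libraries were drawn independently, without differences between treatments or likeness between samples of the same number. These rates therefore do not cover such structure in the real samples.

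Members and lists were chosen with earlier results of these data known. Named were all members, Trim21, up to 3 called genes of each list and direction, the gene most like each member (for Alk, 3) and called neighbours within 1 Mb, of which 1 is not reported here. Positions are from GENCODE M21 (GRCm38) and promoters from RefSeq (GRCm38.p6). Alternatives were DESeq2 size factors, no filter, the DESeq2 1.42.0 Wald test, the replicate number as a block, leaving out each sample, single sample numbers, and union exon lengths.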

Additional observations from a re-analysis of the deposited data

Results flagged for a closer look

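In the TRIM21 line 1 library, the PBS sample 11, was far from the other 8 for 3 receptors. Its Pdgfra level was 309.9 CPM, the next lowest being 682 CPM, a gap of 0.598 of the whole range. Its Axl level was 1464 CPM, the next highest being 1069 CPM (gap 0.687), and its Fgfr2 level was 62.4 CPM, the next highest being 52.9 CPM (gap 0.5). Each gap was wider than Dixon's 95% limit for 9 samples. Of 20 sets of 9 samples examined these 3 exceeded it, and chance does so in about 1 in 20. The 3 values come from the same library and are not independent of each other.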

How the results depend on the processing

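Egfr kept its direction in every alternative and its call in all but the samples numbered 11 alone. The count of receptors called between the lines, 1 of 9 without Alk, was 2 with no filter, with the replicate block, with the DESeq2 Wald test and with number 10 alone, and 0 with number 11 alone. Leaving out 1 sample gave 1 to 2. Over all genes the 750 calls became 1462 with the replicate block, and 314, 48 and 253 with numbers 10, 11 and 14 alone, which hold fewer samples. They ranged from 517 to 1268 with 1 sample left out. Within treatments the 405 calls summed over PBS, BSA and IgG became 1207 with the replicate block and 750 with DESeq2, and 327 to 1236 with 1 sample left out. Both highest counts came without the TRIM21 PBS sample 14, while the receptor calls, 3 for Egfr, stayed at 3 or 4. Treatment contrasts over both lines gave 1 gene instead of 0 with the block and with DESeq2, and none of the receptors. The DESeq2 Wald test called 3 immediate target genes where edgeR called 1. The cause of these shifts was not tested.

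The groups share the numbers 10, 11 and 14, but the sources used here do not say what a number marks. Of 45 same-number pairs, 32 had deviations correlated above 0.1 (mean 0.218, range -0.323 to 0.578). Of the 18 samples, 16 were closest to their own number, so samples that share a number tended to resemble each other. The main fit left the numbers out, because their meaning is not given and not every pair was correlated above 0.1. Whether Pdgfra was called depended on this choice. With the replicate block Pdgfra had a log2 fold change of -0.48 (edgeR adjusted p = 0.0106), and Egfr remained the other receptor called.

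Uncalled values near 0 changed sign: Igf1r ranged from -0.065 to 0.018 and Ddr2 from -0.031 to 0.046 with 1 sample left out. With number 11 alone Fgfr2 was 0.061, Igf1r 0.11 and Ddr2 -0.042, and with number 14 alone Met was -0.067 and Ddr2 -0.12. Alk could not be fitted with number 11 alone, where it fell under the filter. DESeq2 size factors moved the median log2 fold change of all genes from 0.014 to 0.019. Union exon lengths moved Axl to 195 RPKM, Pdgfra to 87.4, Igf1r to 13.5 and Fgfr2 to 4.89. Depth limits the statements on Alk, whose WT libraries hold 2 to 6 counts.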
